A study of Mus musculus with 4 samples.

Results

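The 35 genes described here copy DNA or prepare cells for copying it. They were chosen by symbol from the deposited expression table as genes of replication licensing, of the replication fork and of nucleotide supply, and all 35 were found among its 20032 genes. The study profiled RNA of mouse olfactory bulbs that lack Sp8 together with Sp9, a pair of zinc finger transcription factors, in their interneuron lineage. The mutants, called DCKO for double conditional knockout, carried the Dlx5/6-CIE transgene together with Sp8 Flox/Flox and Sp9 Flox/Flox alleles. The controls were littermates without Cre, and the labels do not give their floxed alleles. All bulbs were from postnatal day 11, the strain background was a mix of CD1, C57BL/6J and 129S6, and there were 2 libraries from DCKO bulbs and 2 from control bulbs. The transgene places Cre under a Dlx5/6 enhancer that is active in GABAergic precursors, so cells outside that lineage are not its direct target. The labels do not say whether the 2 libraries of a genotype came from separate animals or from pools, so p-values measure only the spread between these libraries, which may be technical.

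DNA replication begins when the origin recognition complex, Cdc6 and Cdt1 load the MCM helicase onto DNA in G1. In S phase, Cdc45 and the GINS complex join the helicase and activate it, and polymerases then copy both strands around the sliding clamp PCNA. Many genes of this machinery are known targets of E2F transcription factors, which the retinoblastoma protein family restrains outside the cycle. In the postnatal bulb most neurons have left the cycle, and dividing cells include glia, their precursors and the neuroblasts and progenitors that arrive from the subventricular zone.

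The deposited count columns summed to 14899179 and 14632502 in the DCKO libraries and to 15033308 and 15400982 in the control libraries. The authors appear to have scaled these columns, so the sums give neither the depth of a library nor the order of the libraries by depth. The targeted genes checked the labels: Sp8 stood at 1.68 and 2.03 FPKM in DCKO bulbs against 32.0 and 26.7 FPKM in control bulbs, and Sp9 at 0.0674 and 0.236 FPKM in DCKO bulbs against 24.0 and 30.7 FPKM in control bulbs. FPKM is fragments per kilobase of transcript, scaled to the mapped fragments of the library. It is thus a relative level, and a comparison between libraries depends on the other RNA that each library holds. Defining markers of the bulb were present, with Tbx21 of mitral and tufted cells at 84.7 and 92.5 FPKM in DCKO bulbs and 27.4 and 30.7 FPKM in control bulbs. The labels give no extraction or sequencing batch.

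The replication and S phase genes ranged from 0.141 to 36.7 FPKM over the 4 libraries and were mostly higher in DCKO bulbs. Of the 35 members, 8 rose in DCKO, 0 fell, 23 were tested and did not pass, and 4 lay below the filter of a mean of 1 FPKM. The genes that rose were Dtl, Rrm2, Chaf1b, Uhrf1, Mcm3, Gins2, Mcm2 and Rpa2, with a mean 5.70-fold higher for Dtl and 1.42-fold to 2.67-fold higher for the others. In 22 of the 35 members both DCKO libraries lay above both controls, in 1, Gins3, both lay below, and in 12 the groups overlapped. The summed level of the 35 genes was 156 and 199.8 FPKM in DCKO bulbs, against 131 and 130.1 FPKM in control bulbs. Because this is RNA of the whole bulb, more cells of a kind and more RNA per cell cannot be told apart. Nor can either be told from a larger share of the library where other RNA was lost. Granule cell markers, for example, summed to 80.7 and 113 FPKM in DCKO bulbs, against 699 and 732 FPKM in control bulbs.

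The test was limma's, two-sided, on log2(FPKM + 1) of the 13434 genes that averaged 1 FPKM or more, and a gene passed where its p after Benjamini-Hochberg adjustment was below 0.05. Across those genes 13.0% rose and 14.3% fell, which is the background for the 8 members that rose and the 0 that fell. With no filter 8 members rose and 0 fell, beside 6.06% and 7.32% of 19592 genes, and 6 of the 8 were the same genes. The share with both DCKO libraries above both controls was 30.1% over all genes with a value above 0, and the share with both below was 30.4%. Over the genes tested these shares were 33.9% and 37.6%. With log2 values centred on each library's median, 2225 genes rose and 1580 fell, against 1747 and 1926 in the fit used here. No member was lower at an unadjusted p below 0.05 either (count 0), while 17 were higher. Over all 13434 genes tested, 2796 were higher and 2994 lower at that threshold. The median log2 change was 0.35 over the 35 members with no filter and -0.0049 over all 19592 genes above 0. For a single gene, an exact permutation test of 2 libraries against 2 reaches no p smaller than 0.333. The count of members that rose was 5 without DCKO replicate 2 and 5 without control replicate 2. The median over the tested members was 0.38, and 0.22 without DCKO replicate 2.

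**Figure D1:**
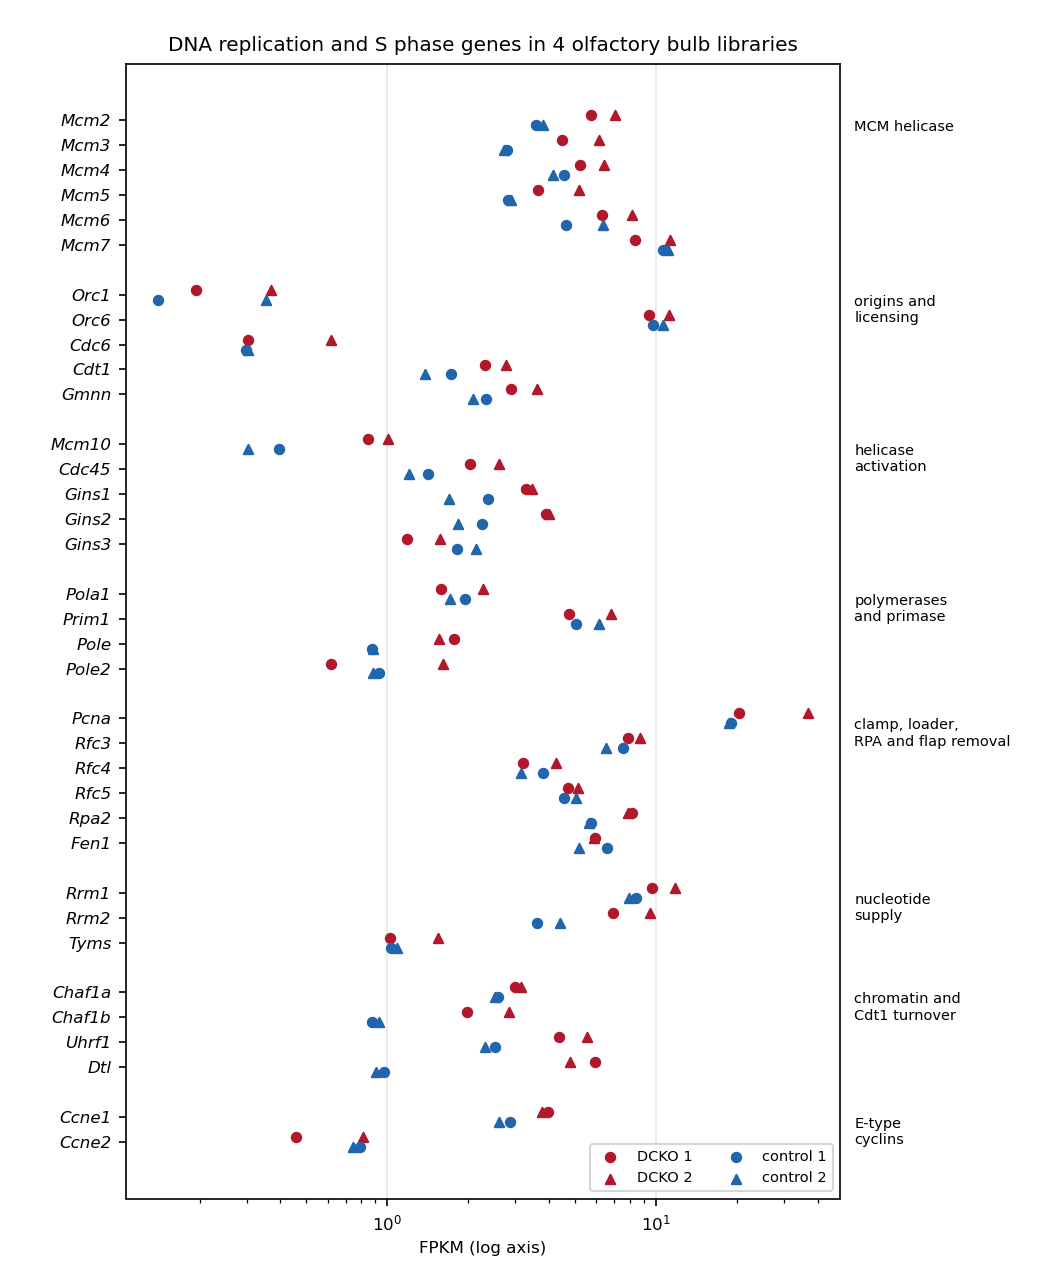
FPKM (log axis) of each of the 35 genes in the 4 libraries, grouped by role. Red points are the 2 DCKO libraries and blue points the 2 controls, with circles for replicate 1 and triangles for replicate 2. In 22 rows both red points lie to the right of both blue points, and Gins3 is the row where both lie to the left.

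Dtl is the substrate receptor of a ubiquitin ligase that marks Cdt1 for destruction once replication has begun, which keeps origins from firing again. It lies on chromosome 1 at 191537356 to 191575544 on the - strand (GRCm38, protein-coding, ENSMUSG00000037474.13). Dtl stood at 5.93 and 4.79 FPKM in DCKO bulbs, against 0.969 and 0.910 FPKM in control bulbs, or 5.36 ± 0.806 FPKM in DCKO and 0.940 ± 0.0417 FPKM in control (mean ± SD, n = 2 each). The groups were far apart, with the lower DCKO library above either control by more than the spread within each group. On the log2(FPKM + 1) scale it was higher by 1.71 with an SE of 0.13 and a 95% confidence interval of 1.36 to 2.05 (limma adjusted p = 0.00295). By log2 change Dtl ranked 26 of the 13434 genes tested, counted from the highest, and the next member, Rrm2, ranked 340. The call for Dtl held in all 12 alternative fits that tested it, with a log2 change between 1.58 and 2.38 and an adjusted p between 0.000759 and 0.0180.

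Of the 3 members that act on chromatin behind the fork, Uhrf1 and Chaf1b rose and Chaf1a did not pass. Uhrf1 recognises newly copied, half-methylated DNA and recruits the maintenance methyltransferase (chromosome 17, 56303321 to 56323486, + strand). It stood at 4.37 and 5.55 FPKM in DCKO bulbs, against 2.51 and 2.31 FPKM in control bulbs (log2 change 0.80, SE 0.13, limma adjusted p = 0.0165). Its call held in all 12 alternative fits (adjusted p between 0.0106 and 0.0443). Chaf1b, the middle subunit of the chromatin assembly factor CAF-1 that places histones on new DNA (chromosome 16, 93883901 to 93906115, + strand), stood at 1.99 and 2.84 FPKM in DCKO bulbs, against 0.878 and 0.932 FPKM in control bulbs (log2 change 0.83, SE 0.17, limma adjusted p = 0.0268). The DCKO libraries differed from each other here, and without DCKO replicate 2 the call was lost (adjusted p = 0.0602). Its partner subunit Chaf1a stood at 2.99 and 3.15 FPKM in DCKO bulbs, against 2.58 and 2.53 FPKM in control bulbs, and did not pass (log2 change 0.19, 95% confidence interval -0.07 to 0.46, limma adjusted p = 0.212). Dtl and Chaf1b had control means below 1 FPKM and passed the filter through their DCKO values. The same holds for Pole and Pole2, described below.

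**Figure D2:**
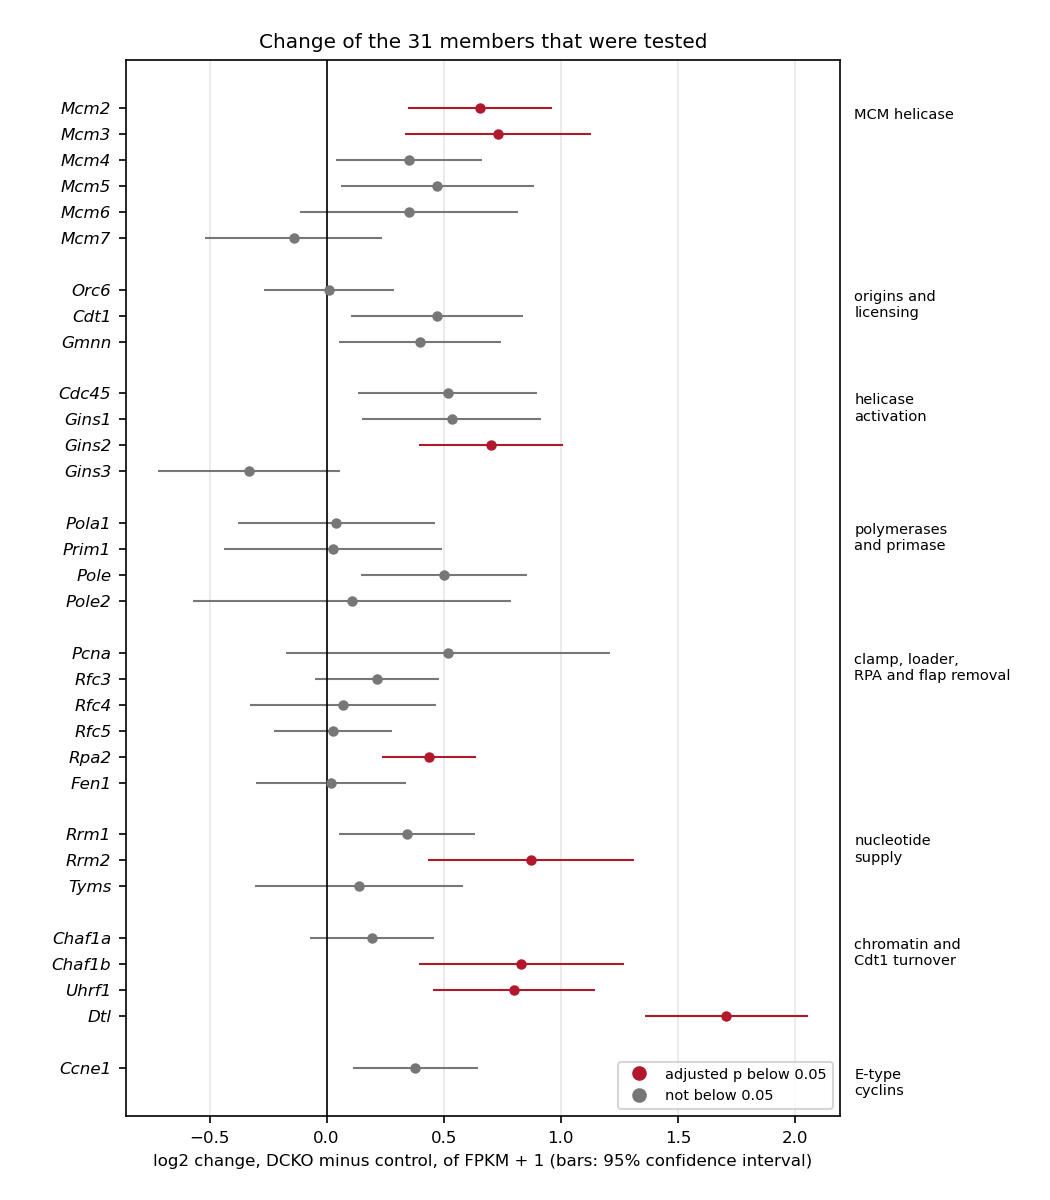
Log2 change (DCKO minus control, of FPKM + 1) of the 31 tested members by role, with 95% confidence intervals from limma. The 8 red points passed at an adjusted p below 0.05 and all lie to the right of 0, with Dtl at 1.71; only Mcm7 and Gins3 lie to the left.

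Of the 6 subunits of the MCM helicase, which form a single ring, Mcm2 and Mcm3 rose and the other 4 did not pass. No test compared the changes of the subunits. Mcm2 (chromosome 6, 88883474 to 88898780, - strand) stood at 5.75 and 7.04 FPKM in DCKO bulbs, against 3.56 and 3.79 FPKM in control bulbs (log2 change 0.66, SE 0.12, limma adjusted p = 0.0198). Mcm3 (chromosome 1, 20802968 to 20820312, - strand) stood at 4.46 and 6.13 FPKM in DCKO bulbs, against 2.79 and 2.72 FPKM in control bulbs (log2 change 0.73, SE 0.15, limma adjusted p = 0.0282). For these genes every DCKO value exceeded every control value, and both calls rested on few libraries. Without control replicate 1, Mcm2 no longer passed (adjusted p = 0.0602). Mcm3 no longer passed without either control (adjusted p = 0.0546 and 0.0658) or with no filter (0.0654).

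Mcm4 and Mcm5 also had both DCKO values above both controls but did not pass. Mcm5 stood at 3.65 and 5.17 FPKM in DCKO bulbs and 2.82 and 2.89 FPKM in control bulbs (limma adjusted p = 0.0856), and Mcm4 had a mean ratio of 1.34 (adjusted p = 0.0892). Mcm6 overlapped between the groups, at 6.29 and 8.18 FPKM in DCKO bulbs and 4.61 and 6.33 FPKM in control bulbs. Mcm7 had the highest level of the 6 in every library, at 8.36 and 11.3 FPKM in DCKO bulbs and 10.6 and 11.1 FPKM in control bulbs. Its groups overlapped, with a log2 change of -0.14 (95% confidence interval -0.52 to 0.23, limma adjusted p = 0.492). Exons of Mcm7 overlap those of Cops6 and Ap4m1 on the other strand, and without a known strand setting their fragments cannot be separated.

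Among the proteins that mark and license origins, none passed the test. Cdt1, the loader of the MCM ring, stood at 2.31 and 2.77 FPKM in DCKO bulbs, against 1.73 and 1.39 FPKM in control bulbs (log2 change 0.47, limma adjusted p = 0.0671). Its inhibitor geminin, Gmnn, stood at 2.88 and 3.60 FPKM in DCKO bulbs, against 2.34 and 2.09 FPKM in control bulbs (log2 change 0.40, adjusted p = 0.0843). For this pair the groups did not overlap. Orc6, the smallest subunit of the origin recognition complex, was level at 9.40 and 11.2 FPKM in DCKO bulbs and 9.73 and 10.6 FPKM in control bulbs (log2 change 0.01, 95% confidence interval -0.27 to 0.29). Exons of Orc6 overlap those of Vps35 on the other strand. Vps35 stood at 52.5 and 51.9 FPKM in DCKO bulbs and 48.8 and 47.3 FPKM in control bulbs. Orc1 and Cdc6 lay below the filter. Orc1 ranged from 0.141 to 0.370 FPKM over the 4 libraries. Cdc6 stood at 0.303 and 0.617 FPKM in DCKO bulbs and 0.298 and 0.302 FPKM in control bulbs, so DCKO replicate 2 alone was apart from the rest.

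Of the genes that switch the loaded helicase on, Gins2 rose and the other 4 were not called. Gins2 (chromosome 8, 120578633 to 120589304, - strand) stood at 3.89 and 3.99 FPKM in DCKO bulbs, against 2.26 and 1.84 FPKM in control bulbs (log2 change 0.70, SE 0.12, limma adjusted p = 0.0170). Gins1 stood at 3.30 and 3.44 FPKM in DCKO bulbs, against 2.38 and 1.69 FPKM in control bulbs, and missed the threshold (adjusted p = 0.0547). Gins3, a subunit of the same 4-protein complex, stood at 1.19 and 1.57 FPKM in DCKO bulbs, against 1.82 and 2.15 FPKM in control bulbs. Its log2 change was -0.33 (95% confidence interval -0.72 to 0.06, limma adjusted p = 0.159), so the lower level did not pass. The call for Gins2 was lost without DCKO replicate 1 (adjusted p = 0.0556), DCKO replicate 2 (0.0527) or control replicate 2 (0.0617). Exons of Gins2 overlap Gse1 on the other strand, and Gse1 stood at 7.60 and 8.82 FPKM in DCKO bulbs, against 13.3 and 13.7 FPKM in control bulbs.

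Cdc45, the helicase partner of GINS, stood at 2.03 and 2.60 FPKM in DCKO bulbs, against 1.42 and 1.20 FPKM in control bulbs, and did not pass (limma adjusted p = 0.0595). Mcm10, which helps the assembled helicase to start, was too low for the filter, with 0.848 and 1.0 FPKM in DCKO bulbs and 0.395 and 0.303 FPKM in control bulbs. Its mean was 2.65-fold higher in DCKO, the third highest ratio among the 35 after Dtl and Chaf1b. In the fit with no filter it passed (log2 change 0.51, limma adjusted p = 0.0388).

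None of the 4 polymerase and primase genes passed, and only Pole, the catalytic subunit of the leading-strand polymerase, had groups that did not overlap. Pole stood at 1.77 and 1.56 FPKM in DCKO bulbs, against 0.881 and 0.882 FPKM in control bulbs, a mean 1.89-fold higher. It narrowly missed the threshold (log2 change 0.50, limma adjusted p = 0.0535), and on the scaled counts it passed (log2 change 0.88, adjusted p = 0.00823). Over all alternatives its adjusted p lay between 0.00823 and 0.1298. Its accessory subunit Pole2 stood at 0.619 and 1.62 FPKM in DCKO bulbs and 0.929 and 0.887 FPKM in control bulbs, with the DCKO libraries on opposite sides of the controls. Pola1 and Prim1, which lay down the primers, had log2 changes of 0.04 and 0.03 and overlapping groups.

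At the fork, Rpa2 rose and the clamp and its loaders did not pass. Pcna, the sliding clamp, had the highest level of all 35 genes, at 20.4 and 36.7 FPKM in DCKO bulbs and 19.0 and 18.7 FPKM in control bulbs. DCKO replicate 1 was close to the controls and DCKO replicate 2 far above them, and the change did not pass (log2 change 0.52, SE 0.27, limma adjusted p = 0.204). Without DCKO replicate 1 it passed (log2 change 0.92, adjusted p = 0.0143), and over all alternatives its adjusted p lay between 0.0143 and 0.3104. Rpa2, a subunit of the complex that coats single-stranded DNA (chromosome 4, 132768332 to 132778752, + strand), stood at 8.16 and 7.89 FPKM in DCKO bulbs, against 5.71 and 5.63 FPKM in control bulbs (log2 change 0.44, SE 0.08, limma adjusted p = 0.0191). Both groups were tight, yet the call was lost without DCKO replicate 1 (adjusted p = 0.0538) or either control (0.0934 and 0.110).

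The clamp loader subunits Rfc3, Rfc4 and Rfc5 had mean ratios of 1.18, 1.07 and 1.02. The groups overlapped for Rfc4 and Rfc5 but not for Rfc3, and none passed. The flap endonuclease Fen1 trims the ends of lagging-strand fragments. It stood at 5.95 and 5.89 FPKM in DCKO bulbs, between the controls at 6.57 and 5.16 FPKM (log2 change 0.02, 95% confidence interval -0.30 to 0.34). Exons of Rfc4, Rfc5 and Fen1 overlap those of Eif4a2, Wsb2 and Tmem258 on the other strand. The overlapping genes ranged from 69.6 FPKM (Wsb2, control replicate 1) to 214 FPKM (Eif4a2, DCKO replicate 2).

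Of the 3 members that supply nucleotides, only the regulated subunit of ribonucleotide reductase rose. Rrm2 (chromosome 12, 24708241 to 24714146, + strand) stood at 6.91 and 9.51 FPKM in DCKO bulbs, against 3.60 and 4.39 FPKM in control bulbs, 2.06-fold higher on the means (log2 change 0.87, SE 0.17, limma adjusted p = 0.0237). Both DCKO values were above both controls, and the call was lost without DCKO replicate 2 (adjusted p = 0.0504) and with no filter (0.0583). Its large subunit Rrm1, which is more stable through the cycle, stood at 9.64 and 11.7 FPKM in DCKO bulbs, against 8.46 and 7.91 FPKM in control bulbs, and did not pass (log2 change 0.34, adjusted p = 0.0805). Thymidylate synthase, Tyms, stood at 1.02 and 1.55 FPKM in DCKO bulbs and 1.04 and 1.09 FPKM in control bulbs, with overlapping groups (limma adjusted p = 0.566).

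Neither E-type cyclin, the activators of Cdk2 at the entry into S phase, was called. Ccne1 stood at 3.96 and 3.76 FPKM in DCKO bulbs, against 2.87 and 2.61 FPKM in control bulbs (log2 change 0.38, 95% confidence interval 0.11 to 0.64, limma adjusted p = 0.0520). Ccne2 was too low for the filter, with 0.457 and 0.815 FPKM in DCKO bulbs and 0.790 and 0.746 FPKM in control bulbs, and its groups overlapped.

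The 2 DCKO libraries did not hold the same levels. Of the 35 genes, 30 were higher in DCKO replicate 2 than in DCKO replicate 1, with a median ratio of 1.27, while 14 of 35 were higher in control replicate 2 than in control replicate 1. Over all 13434 tested genes, 59.4% were higher in DCKO replicate 2, with a median ratio of 1.03. The 5 exceptions were Dtl, Pole, Rpa2, Ccne1 and Fen1. The widest gaps were in Pole2 (2.61-fold), Cdc6 (2.04-fold), Orc1 (1.90-fold), Pcna (1.80-fold) and Ccne2 (1.78-fold). The median deviation of the 35 genes from the control mean was 0.21 in DCKO replicate 1 and 0.46 in DCKO replicate 2 on the log2(FPKM + 1) scale.

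**Figure D3:**
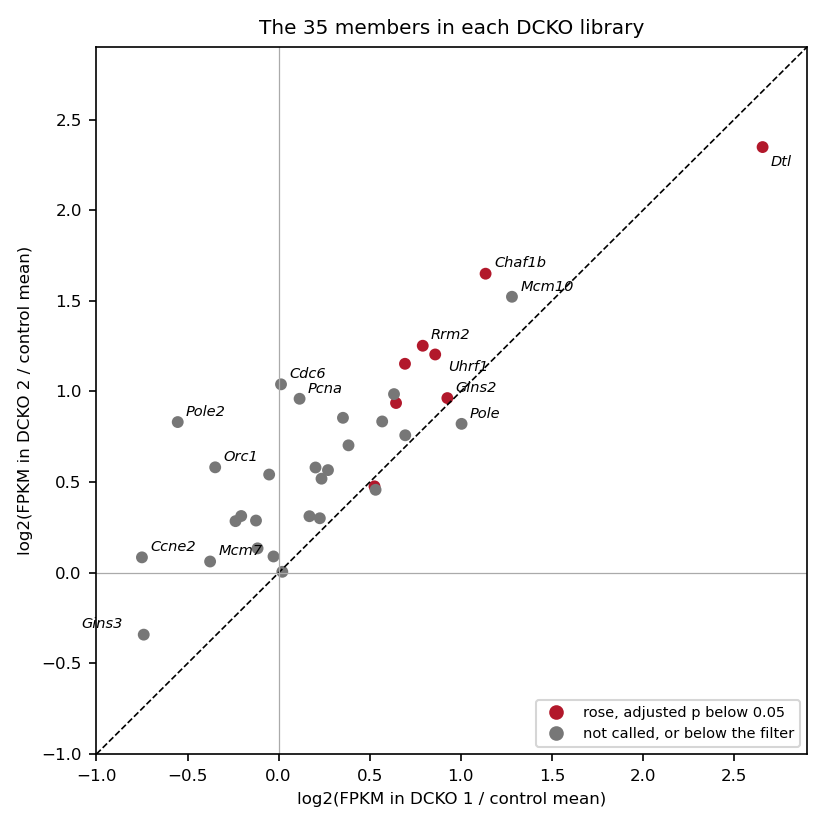
Each point is 1 of the 35 genes, placed by the log2 ratio of its FPKM to the control mean in DCKO replicate 1 (x axis) and DCKO replicate 2 (y axis). The dashed line marks equal ratios, and 30 points lie above it; red points are the 8 genes that rose.

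A further list held 50 other genes of the replication pathway. Of these, 46 were tested, 4 rose and 1 fell. Over all genes tested 13.0% rose and 14.3% fell, so both shares were smaller in this list. The median log2 change was 0.16, against -0.02 over all genes tested. Tk1, thymidine kinase of the salvage route, stood at 4.32 and 5.62 FPKM in DCKO bulbs, against 1.73 and 2.15 FPKM in control bulbs (log2 change 1.02, SE 0.15, limma adjusted p = 0.0133). Rpa1, the large partner of Rpa2, stood at 17.1 and 16.9 FPKM in DCKO bulbs, against 12.4 and 11.9 FPKM in control bulbs (log2 change 0.46, adjusted p = 0.0127). The small polymerase subunit Pold4 (log2 change 0.52, adjusted p = 0.0163) rose as well. Topbp1, a scaffold of helicase activation, also rose (log2 change 0.42, adjusted p = 0.0346) and is named here after its value was seen. Dnmt1, the methyltransferase that Uhrf1 recruits, fell to 12.5 and 15.0 FPKM in DCKO bulbs, against 19.0 and 19.4 FPKM in control bulbs (log2 change -0.46, limma adjusted p = 0.0330). Its call was lost without DCKO replicate 1 and without either control, when 0 genes of the list fell, and 3 fell without DCKO replicate 2. Without either control, 2 of these genes rose.

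Regulators of S phase entry went in both directions, with 7 of 24 tested genes higher and 2 lower in DCKO. Over all genes tested 13.0% rose and 14.3% fell. The cyclins Ccnd2 (29.1 and 44.0 FPKM in DCKO bulbs, 16.8 and 16.2 FPKM in control bulbs, log2 change 1.07) and Ccnd1 (log2 change 0.70), which open the way from G1 to S, rose. So did the S phase cyclin Ccna2, at 6.36 and 8.28 FPKM in DCKO bulbs and 3.65 and 3.50 FPKM in control bulbs (log2 change 0.85). The kinase inhibitor Cdkn2c, a brake on the D-type cyclin kinases, rose too, at 6.15 and 6.66 FPKM in DCKO bulbs and 3.05 and 2.77 FPKM in control bulbs (log2 change 0.92). By limma these 4 had adjusted p between 0.0061 and 0.0201. The others that rose were Cdk2, E2f8 and Cdkn2d, and Rb1 (log2 change -0.45) and E2f4 (-0.28) fell; these 5 and E2f1 were named after their values were seen. E2f8 had a control mean of 0.840 FPKM and passed the filter through its DCKO values. E2f1 overlapped between the groups, at 2.65 and 3.04 FPKM in DCKO bulbs and 2.44 and 3.0 FPKM in control bulbs. The 2 lower calls are uncertain, since 0 remained without control replicate 1 or without control replicate 2, and 1 without DCKO replicate 1.

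Mitosis genes are set beside these values as the following phase of the cycle. Of 26 listed genes 23 were tested, and 18 rose and 0 fell, with a median log2 change of 0.70, against 0.38 over the 31 tested replication and S phase genes. No test compared the lists. Of the mitosis genes that rose, Ndc80 and Kif20a had control means of 0.574 and 0.903 FPKM. They met the filter through their DCKO values and are named here for that. With no filter 8 of the 26 mitosis genes rose, beside 6.06% of 19592 genes, and their median log2 change was 0.68. Top2a, the topoisomerase that separates sister chromatids, stood at 6.84 and 9.0 FPKM in DCKO bulbs, against 3.67 and 3.12 FPKM in control bulbs (log2 change 1.01, limma adjusted p = 0.0127). Ccnb1 (log2 change 0.98), the mitotic factor Foxm1 (0.96) and Birc5 (0.94) rose as well. The count of mitosis genes that rose was 8 without DCKO replicate 2, 9 without control replicate 1 and 11 without control replicate 2, and 25 of the 26 were higher in DCKO replicate 2 than in DCKO replicate 1.

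**Figure D4:**
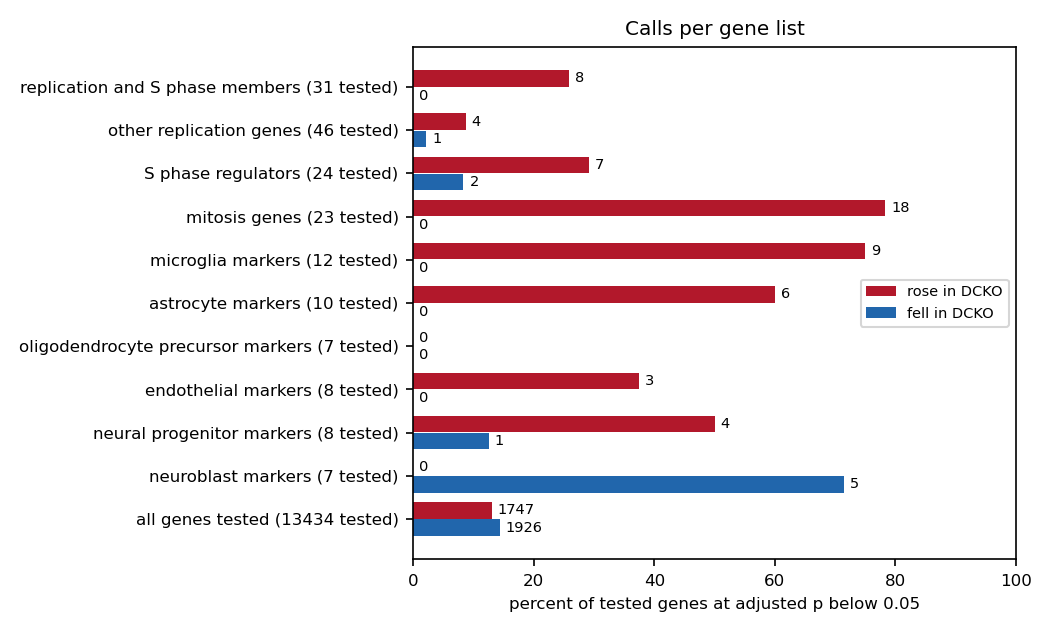
Percent of tested genes per list that rose (red) or fell (blue) in DCKO at an adjusted p below 0.05, with the count beside each bar. The replication and S phase genes had 8 of 31 higher and 0 lower, mitosis genes 18 of 23 higher, and all genes tested 13.0% higher and 14.3% lower.

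Markers of several cell types that can divide in the postnatal bulb moved in the same comparison. Of 12 microglia markers 9 rose. The 12 summed to 276 and 297 FPKM in DCKO bulbs against 175 and 170.4 FPKM in control bulbs. The 3 that did not pass were P2ry12 (log2 change -0.03), Tmem119 (-0.0041) and Siglech (0.28). Of 10 astrocyte markers 6 rose. The 10 summed to 1340.3 and 1157 FPKM in DCKO bulbs against 731 and 742 FPKM in control bulbs. The 4 that did not pass were Slc1a2 (log2 change 0.04), Aldoc (0.33), S100b (0.51) and Fgfr3 (0.48). The microglia and astrocyte markers that did not pass are named after their values were seen. Of 8 endothelial markers 3 rose, with sums of 181 and 183 FPKM in DCKO bulbs against 139 and 137 FPKM in control bulbs. For these cell types the DCKO sums lay above both controls.

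Neural progenitor markers split, with 4 of 8 higher and 1 lower. Their sums were 267 and 316 FPKM in DCKO bulbs against 224 and 213 FPKM in control bulbs. Vim, 1 of the 4, held 126 and 135 FPKM of the DCKO sums and 72.7 and 63.9 FPKM of the control sums. Without Vim the sums of the groups overlapped. Dlx2, a factor of the interneuron lineage and the 1 that fell, stood at 8.99 and 17.5 FPKM in DCKO bulbs, against 46.1 and 45.2 FPKM in control bulbs. Of 7 neuroblast markers 5 fell, with sums of 196 and 303 FPKM in DCKO bulbs against 526 and 526 FPKM in control bulbs. Of 7 oligodendrocyte precursor markers 0 passed in either direction by limma, with 0 at an unadjusted p below 0.05, and their sums were 209 and 160.5 FPKM in DCKO bulbs and 149 and 171 FPKM in control bulbs.

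The markers also differed between the DCKO libraries. All 8 progenitor and all 7 neuroblast markers were higher in DCKO replicate 2 than in DCKO replicate 1, as were 8 of 12 microglia, 4 of 10 astrocyte and 0 of 7 oligodendrocyte precursor markers. Oligodendrocyte markers summed to 999 and 549 FPKM in the DCKO libraries and to 573 and 777 FPKM in the controls, and 0 of 7 were higher in DCKO replicate 2. The controls also stood apart in some lists: mural and fibroblast markers summed to 268 and 337 FPKM in DCKO bulbs and to 409 and 205 FPKM in control bulbs, and sensory neuron markers to 201 and 165 FPKM in DCKO bulbs and 297 and 113 FPKM in control bulbs, each highest in control replicate 1. None of the microglia, astrocyte, endothelial, progenitor, neuroblast and oligodendrocyte precursor markers was at 0 in a library. The part of any of these cell types in the levels of the replication genes was not tested. In the remaining lists, 8 of 8 mitral and tufted cell, 5 of 6 olfactory ensheathing glia, 1 of 8 mural and fibroblast and 1 of 3 tested blood markers rose. All 7 granule cell markers fell, and 0 of 5 sensory neuron and 0 of 6 oligodendrocyte markers passed by limma (1 lower and 1 higher at an unadjusted p below 0.05).

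The choice of members did not use promoter sequence. RefSeq promoter windows of 300 bases, with 250 bases before the annotated start, were matched by symbol for 29 of the 35 genes (32 windows, GRCm38.p6). Each window was searched on both strands for E2F-like letters (TTTCCCGC, TTTCGCGC, TTTGCCGC and TTTGGCGC), for the NF-Y-like box CCAAT and for the cell cycle homology region (CHR) letters TTTGAA. An E2F-like match was found for 13 of 29 genes (44.8%). Over all 27025 genes with a window the share was 2.6%, and over the 9992 of them that were tested here it was 4.5%. The median GC content was 58.0% in the windows of the 29 genes, 52.7% in all windows and 61.0% in those of tested genes. A match is a description of these letters and not of binding.

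The 13 genes with an E2F-like match are shown because they include members that rose and members that did not. Each stretch is written 5′ to 3′ on the gene's strand with up to 10 bases on either side. The positions are of the stretch in GRCm38.p6, and capitals mark the E2F-like letters or, for matches on the opposite strand, their reverse complement.
Cdc6 (chr11:98908003-98908030, + strand): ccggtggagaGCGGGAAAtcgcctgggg
Cdt1 (chr8:122568037-122568064, + strand): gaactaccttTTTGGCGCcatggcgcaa
Dtl (chr1:191575535-191575562, - strand): gtgacgtcagTTTGGCGCggagtttggc
Gins3 (chr8:95633508-95633535, + strand): cgagtgcggcGCGGGAAAgcgagtttga
Mcm3, upstream match (chr1:20820276-20820303, - strand): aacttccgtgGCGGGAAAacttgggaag
Mcm3, downstream match (chr1:20820263-20820284, - strand): cttgggaagtTTTGGCGCcaag
Mcm5 (chr8:75109346-75109377, + strand): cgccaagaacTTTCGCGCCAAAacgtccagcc
Mcm6, upstream matches (chr1:128359794-128359825, - strand): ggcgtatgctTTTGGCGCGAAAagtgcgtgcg
Mcm6, downstream match (chr1:128359735-128359762, - strand): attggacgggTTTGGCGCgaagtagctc
Mcm7, upstream match (chr5:138172031-138172058, - strand): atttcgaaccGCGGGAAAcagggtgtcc
Mcm7, downstream match (chr5:138171850-138171877, - strand): ggtgacgacgTTTCGCGCcaatttcggt
Orc1 (chr4:108579417-108579444, + strand): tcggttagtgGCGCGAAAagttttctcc
Pola1 (chrX:93632276-93632303, - strand): tcatcacaggGCGCCAAAtgcactcccg
Pole2 (chr12:69228163-69228190, - strand): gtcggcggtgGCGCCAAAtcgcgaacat
Rfc3 (chr5:151651191-151651228, - strand): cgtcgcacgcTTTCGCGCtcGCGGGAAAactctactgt
Uhrf1 (chr17:56304118-56304145, + strand): ccgagtcgggTTTCGCGCgcccaggcgt

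In Mcm5 and in the upstream pair of Mcm6 matches on opposite strands overlap, and in Rfc3 matches on opposite strands lie side by side. The downstream match of Mcm7 shares its last base with a CCAAT box. Counted from the annotated start as 0, the matches began between -185 in Uhrf1 and 38 in Mcm3. In Dtl, the gene of largest change, the match began at -8, and its whole window (chr1:191575495-191575794, - strand) is given to show the match beside the CCAAT box that precedes it.
Dtl window: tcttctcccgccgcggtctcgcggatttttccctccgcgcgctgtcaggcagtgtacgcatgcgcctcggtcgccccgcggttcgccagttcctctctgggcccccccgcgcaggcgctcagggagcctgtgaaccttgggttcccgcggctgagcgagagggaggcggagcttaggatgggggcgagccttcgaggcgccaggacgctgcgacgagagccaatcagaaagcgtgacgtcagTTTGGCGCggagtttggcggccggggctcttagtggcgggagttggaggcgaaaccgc

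The match occurred among members that rose and among the others. Among genes with a window it was found in 3 of 7 that rose (Dtl, Mcm3 and Uhrf1), in 8 of 19 that were tested and did not pass, and in 2 of 3 below the filter. Rrm2, Mcm2, Rpa2 and Chaf1b rose without a match in these windows, and Gins3, lower in both DCKO libraries, held a match at -41. The CCAAT box was found for 20 of 29 genes (69.0%), against 41.1% of all genes with a window and 42.9% of those tested. CHR letters were found for 4 of 29 genes (13.8%), against 20.2% of all genes with a window and 13.3% of those tested. Among mitosis genes, E2F-like letters were found for 1 of 22 genes (4.55%) and CHR letters for 14 of 22 (63.6%).

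**Figure D5:**
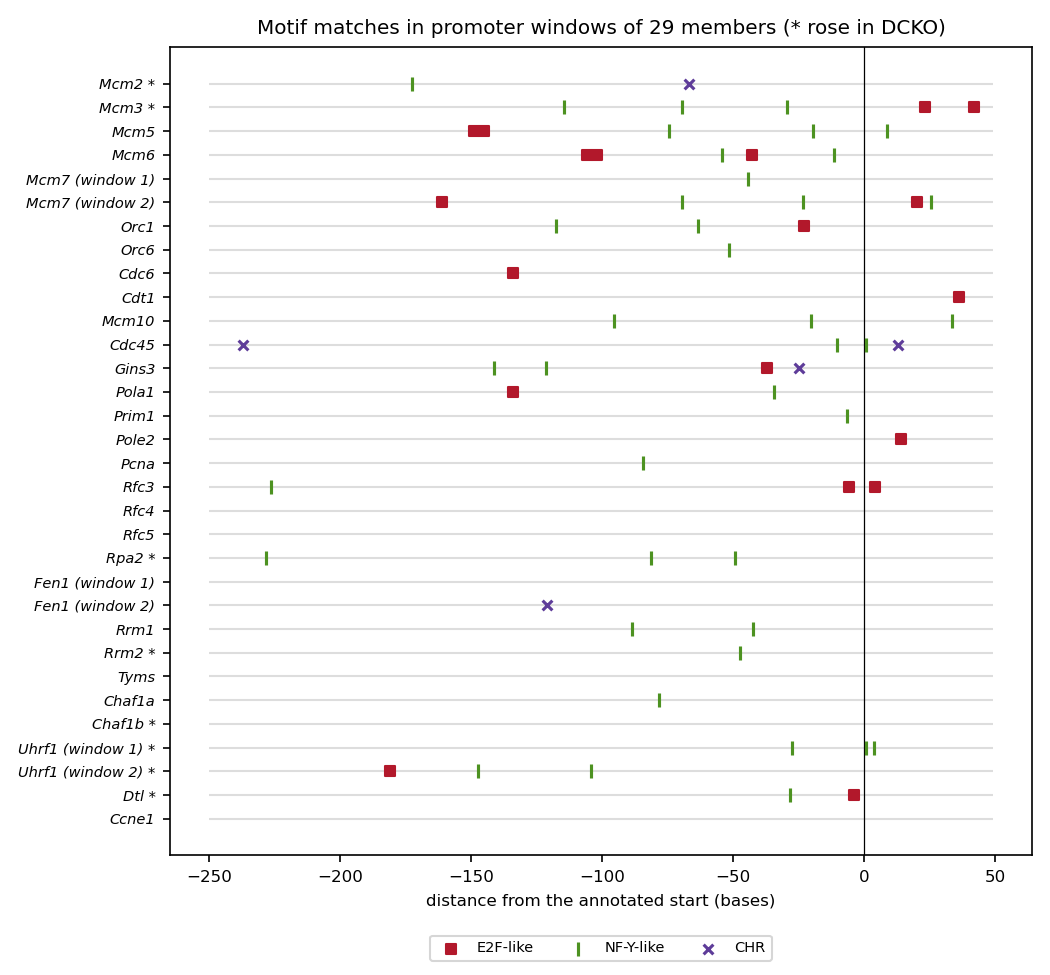
Motif matches in the 32 promoter windows of 29 genes, placed by the distance in bases from the annotated start to the middle of each match. Squares are E2F-like, ticks NF-Y-like and crosses CHR matches, asterisks mark genes that rose in DCKO, and windows of 1 gene are numbered by coordinate. Squares occur for 13 of the 29 genes, with and without an asterisk.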

How the data were processed

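Total RNA of olfactory bulbs was sequenced in 4 libraries, 2 DCKO and 2 control, mapped to columns by the codes in the sample descriptions, and 0 columns were left unmapped. The submitters' processing notes name TopHat, Cufflinks 2.1.1 and GRCm38.p4. Strand, settings and annotation were not given in the sources used here. FPKM values and columns headed count were deposited by the authors. The columns headed count are a signal that the authors appear to have scaled. In each library 98.6% to 98.9% of its values below 60 were whole multiples of its own step, to a tolerance of 0.05. They are not raw counts, so no count model was used. The members had 9.07 to 1020 scaled fragments in a library, and low values are the least precise.

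From these, log2(FPKM + 1) was fitted with limma 3.58.1 in R 4.3.3 (genotype as the only term, intensity trend, filter at a mean of 1 FPKM, all 4 libraries). The fit was also run on simulated data whose set changes were larger than those of every tested member but Dtl. That run does not show how well smaller changes are found. Coordinates come from GENCODE M21 (GRCm38), which matched all 35 members, and 12 of the 35 share exonic bases with another gene. Promoter windows come from RefSeq and were matched for 29 members, the others being Ccne2, Gins1, Gins2, Gmnn, Mcm4 and Pole.

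The members, lists and alternatives were chosen with earlier results of these data known. The rule for named genes covered all members, Sp8 and Sp9, and up to 4 called genes of largest change in each other list, or the 2 of highest mean where none was called; further names are marked. Alternatives covered the pseudocount, the filter, scaling, variance trend, a replicate block, the scaled counts and each library left out in turn. Same-numbered libraries did not deviate together (correlation of deviations across genes -0.02), so the replicate numbers were not taken as pairs.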

Additional observations from a re-analysis of the deposited data

How the results depend on the processing

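Over refits of the 31 tested members, 332 values kept direction and side of the threshold, 13 lost a call, 24 gained one, and 15, all of genes that had not passed, changed sign. Pola1 changed sign with quantile normalization (-0.0035). The other sign changes came with 1 library left out, which gave log2 changes between -0.34 and 0.057 for Mcm7 (positive without DCKO replicate 1), -0.10 and 0.12 for Orc6, -0.13 and 0.21 for Pola1, -0.19 and 0.25 for Prim1, -0.24 and 0.46 for Pole2, -0.092 and 0.23 for Rfc4, -0.033 and 0.088 for Rfc5, -0.13 and 0.17 for Fen1 and -0.026 and 0.30 for Tyms. All of these but Fen1 were negative without DCKO replicate 2.

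The 8 members that rose became 3 with a filter at mean 5 FPKM, where only 12 members were tested, 14 with centring on library medians and 13 without the intensity trend. With 1 library left out the count ran between 5 and 9, and 0 members fell in any fit. With no filter 8 members rose, 6 of them the same genes. Over all refits the adjusted p ran between 0.0136 and 0.0602 for Mcm2, 0.0177 and 0.0658 for Mcm3, 0.0117 and 0.0617 for Gins2, 0.0141 and 0.1097 for Rpa2, 0.0142 and 0.0583 for Rrm2 and 0.0168 and 0.0602 for Chaf1b. The members' median log2 change was 0.48 with a pseudocount of 0.1 and ran between 0.22 and 0.47 with 1 library left out. Other replication genes that rose, 4 in the fit used here, were 8 with median centring, 8 without the trend and 7 on scaled counts, and 2 to 5 with 1 library left out. The 1 that fell became 0 with no filter and 2 on scaled counts, and 0 to 3 with 1 library left out. The 2 S phase regulators that fell became 1 with median centring, quantile normalization, upper-quartile scaling or scaled counts and 0 with no filter or without the trend, and 0 to 2 with 1 library left out. Mitosis genes that rose, 18 in the fit used here, were 8 with no filter and 3 of 3 tested at a mean of 5 FPKM, and 8 to 15 with 1 library left out. Over all genes, leaving out 1 library gave 806 to 1384 that rose and 1030 to 1875 that fell. Where a genotype kept 1 library, it was assumed to vary like the other. Apart from the smaller number tested, the cause of these shifts was not tested.

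With the replicate block, which is not a pairing by design, 8 members rose and 0 fell; 1312 genes rose and 1418 fell over all genes, the mitosis genes that rose numbered 12, and the S phase regulators that fell numbered 0. The size of change that 4 libraries can detect at these levels was not measured.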
